A study of Homo sapiens with 2 samples.

Results

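RNA levels of 10 genes that govern passage through G1 phase were followed in T24/R cells treated with the covalent CDK7 inhibitor THZ1. The genes were the D cyclins CCND1, CCND2 and CCND3, the E cyclins CCNE1 and CCNE2, the kinases CDK4, CDK6 and CDK2, the inhibitor CDKN1B and the pocket protein RB1. They were taken by symbol, each matching 1 Ensembl ID, from 58884 gene IDs in both count tables, of which 12457 had enough counts to be compared. The treated group was T24/R cells given 1600 nM THZ1 for 6 h, and its control was T24/R cells given the solvent DMSO for 6 h. Each group had 1 library, so no difference could be checked against replicates and p-values are not given. T24/R is a human bladder line described in the labels as adherent and epithelial, and the series title places it in work on chemonaive and chemoresistant urothelial carcinoma. THZ1 also acts on CDK12 and CDK13, so a difference is that of the compound and not of CDK7 alone.

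In G1, mitogen-induced D cyclins bind CDK4 or CDK6 and begin the phosphorylation of RB1, which otherwise holds E2F transcription factors inactive. The E cyclins are themselves E2F targets, and with CDK2 they complete RB1 phosphorylation and start S phase. CDKN1B (p27) restrains CDK2 complexes. CDK7, as the CDK-activating kinase, phosphorylates the activation loops of these kinases, and as part of TFIIH it phosphorylates RNA polymerase II. Bladder carcinomas often carry lesions in this pathway, including loss of RB1 or CDKN2A and gain of CCND1 or CCNE1.

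After 6 h of THZ1, both E cyclins, CDK6 and CDKN1B were lower relative to the bulk of the transcriptome, and CCND1, CCND3, CDK4, CDK2 and RB1 stayed within 2-fold. CCNE2 was 6.35-fold lower and CCNE1 4.10-fold lower, while CDKN1B was 2.37-fold and CDK6 2.35-fold lower. Of the 9 genes compared, 4 were called lower (44.4%), beside 21.3% of all compared genes, and 0 were called higher, beside 9.70%. A call needed a difference of 2-fold or more whose 95% interval excluded 1, an interval that covers counting error only. Scaled to total counts, 5 of the 9 were lower beside 34.2% of all compared genes, and 0 were higher beside 2.95%. Scaled to mitochondrial mRNAs, 8 of the 9 were lower beside 80.3%, and 0 were higher beside 0.706%. The median log2 ratio of the 9 was −0.54, beside −0.03 over all compared genes, whose middle 50% lay between −0.83 and 0.55. The 9 genes reached the minimum of 30 counts in both libraries, the lowest value being 48 counts of CCNE2 in THZ1, and CCND2 had 0 counts in both. In RNA from a whole culture, fewer cells in a phase of the cycle and less RNA per cell cannot be told apart.

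**Figure D1:**
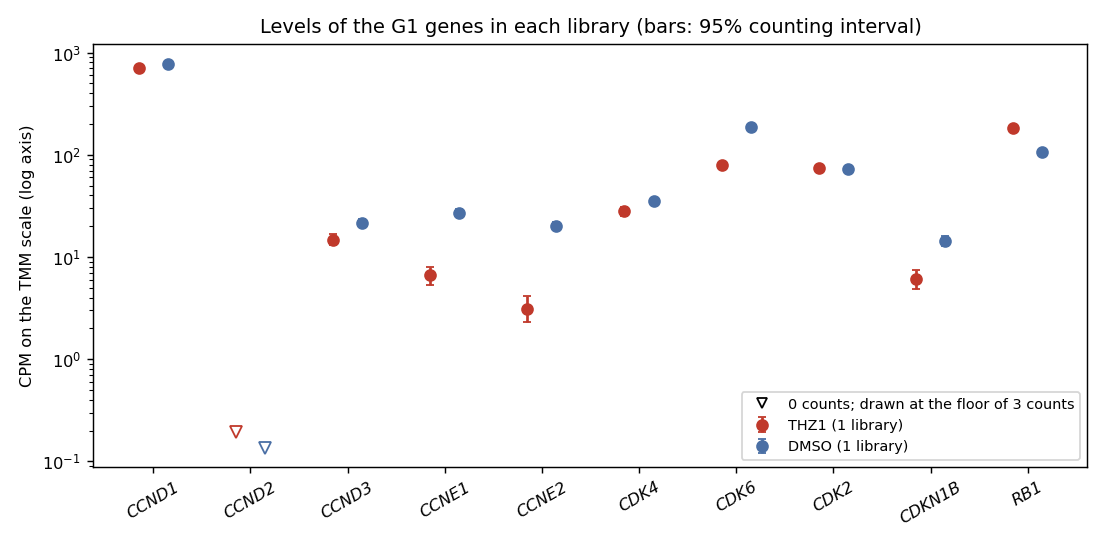
Level of each of the 10 genes as CPM (counts scaled to a common library size by TMM), on a log axis, with the THZ1 library left of the DMSO library and bars for the 95% counting interval. CCNE1, CCNE2, CDK6 and CDKN1B sit lower in THZ1 by more than 2-fold, RB1 sits higher in THZ1, and CCND2, with 0 counts, is drawn at the floor of 3 counts.

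The THZ1 library held 18313827 counts over 23528 genes and the DMSO library 18445831 counts over 23986 genes. Mitochondrially encoded mRNAs took 14.9% of the counts in THZ1 and 6.60% in DMSO, so a gene's ratio depends on what the libraries are scaled to. Against the TMM scale used here, all log2 ratios shift by −0.51 with total counts, by −0.11 with DESeq2 size factors, by −0.03 with the upper quartile and by −1.69 with mitochondrial mRNAs. The targeted kinase CDK7 had 180 counts in THZ1 and 676 in DMSO, a log2 ratio of −1.38 (−1.63 to −1.14), which checks no label because THZ1 acts on the protein. Of 6 epithelial markers, KRT18 and KRT8 reached 30 counts in both libraries. KRT7 had 17 counts in THZ1 and 18 in DMSO, and EPCAM, CDH1 and KRT19 had 0 to 3 counts. The 6 urothelial markers summed to 35 counts in THZ1 and 155 in DMSO, with FOXA1 at 21 and 129, GATA3 at 12 and 25, and PPARG and the uroplakins UPK1B, UPK2 and UPK3A at 0 to 2. Summed counts were 3 and 3 for endothelial and 1 and 5 for leukocyte markers in THZ1 and DMSO, and 94 and 74 for fibroblast markers, led by LUM.

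CCND1, the D cyclin that growth factor signalling induces most directly in many epithelial cells, was by far the most abundant of the 10 genes. It had 10765 counts in THZ1 and 17083 in DMSO, or 703 and 775 CPM on the TMM scale. Its log2 ratio was −0.14 (−0.18 to −0.11), near the median of all genes, and was −0.66 with total counts. CCND3 had 227 counts in THZ1 and 475 in DMSO, with a log2 ratio of −0.54 (−0.77 to −0.31), and was called lower with total counts (−1.05). CCND2 had 0 counts in both libraries, below a floor of 3 counts that stands at 0.196 CPM in THZ1 and 0.136 CPM in DMSO. A difference in CCND2 was therefore not detectable at this depth.

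CCND1 made up nearly all of the D cyclin level in both libraries, and its ratio to CCND3 was higher in THZ1. Per length, as TPM (counts divided by exonic length and scaled to the same sum in each library) computed within each library, CCND1 made up 98.3% of the summed D cyclin level in THZ1 and 97.7% in DMSO. CCND3 made up the rest, 1.73% in THZ1 and 2.26% in DMSO. With the longest annotated transcript as gene length, the CCND3 share was 3.66% in THZ1 and 4.76% in DMSO. The ratio of CCND1 to CCND3 counts was 47.4 in THZ1 and 36.0 in DMSO, a difference in log2 ratio of 0.40 (0.17 to 0.64), a quantity that no scaling of the libraries can change. LTO1, on the opposite strand, covers 10.3% of the exonic bases of CCND1 and had 93 counts in THZ1 and 336 in DMSO. As the strand setting is not given, reads in that stretch cannot be told apart, and their part in the CCND1 value was not tested.

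The E cyclins stood furthest from the bulk. CCNE1, the regulatory subunit that activates CDK2 at the end of G1, had 101 counts in THZ1 and 598 in DMSO, or 6.59 and 27.1 CPM. Its log2 ratio of −2.03 (−2.36 to −1.73) was at percentile 7.43 among all compared genes, counted from the lowest ratio. Its paralogue CCNE2 had 48 counts in THZ1 and 443 in DMSO, or 3.13 and 20.1 CPM. The log2 ratio of CCNE2 was −2.67 (−3.14 to −2.25), at percentile 3.10. Both stayed below −2 under each of the 5 scalings, the values nearest to 0 being those given here.

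Both E cyclins were lower, and CCNE2 more so than CCNE1. The log2 ratio of CCNE2 was 0.64 below that of CCNE1 by the ratio of their counts, a difference of −0.64 with an interval of −1.20 to −0.10. CCNE2 supplied 32.2% of the E cyclin counts in THZ1 (24.8% to 40.4%, exact Clopper-Pearson) and 42.6% in DMSO (39.5% to 45.6%). These count shares are not corrected for length. Per length, CCNE2 made up 21.6% of the summed E cyclin level in THZ1 and 30.1% in DMSO. INTS8, a gene of the Integrator complex on the opposite strand, covers 37.0% of the exonic bases of CCNE2 and had 726 counts in THZ1 and 775 in DMSO, a log2 ratio of 0.43. On the TMM scale the INTS8 ratio lay on the other side of 0 from that of CCNE2. Its sign depends on the scaling, as total counts shift all log2 ratios by −0.51. Any reads that INTS8 shares with CCNE2 were not separated.

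Among the kinases, CDK6 was called lower, while its paralogue CDK4 was lower by less than 2-fold on the TMM scale. On the mitochondrial scale CDK4 was called lower too (−2.02). CDK6 had 1227 counts in THZ1 and 4152 in DMSO, or 80.1 and 188 CPM, with a log2 ratio of −1.23 (−1.33 to −1.14). CDK4 had 428 counts in THZ1 and 775 in DMSO, or 27.9 and 35.1 CPM, with a log2 ratio of −0.33 (−0.51 to −0.16). CDK6 counts were 2.87 times the CDK4 counts in THZ1 and 5.36 times in DMSO. The difference in log2 ratio, CDK6 minus CDK4, was −0.90 (−1.10 to −0.70). Per length, CDK6 made up 42.6% of the summed CDK4 and CDK6 level in THZ1 and 58.1% in DMSO, so that CDK4 led in THZ1 and CDK6 in DMSO. With the longest annotated transcript as gene length these shares were 33.9% in THZ1 and 48.9% in DMSO. By that length the DMSO values were close, at 55.6 TPM for CDK4 and 53.3 TPM for CDK6. No interval was computed by that length, so the order in DMSO is not resolved. CDK6-AS1, on the opposite strand, shares 0.661% of the exonic bases of CDK6 and had 3 counts in each library.

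CDK2, the catalytic partner of the E cyclins, had the ratio nearest to 0 of the 9 genes on the TMM scale. It had 1146 counts in THZ1 and 1614 in DMSO, or 74.8 and 73.2 CPM, and a log2 ratio of 0.03 (−0.08 to 0.14). This sign is not stable, as the ratio was −0.08 with DESeq2 size factors, −0.48 with total counts and −1.66 with mitochondrial mRNAs. The difference in log2 ratio between CDK2 and CDK4 was 0.36 (0.16 to 0.57). PMEL, on the opposite strand, covers 2.29% of the exonic bases of CDK2 and had 17 counts in THZ1 and 9 in DMSO. TSPAN31, on the opposite strand, shares 43.2% of the exonic bases of CDK4 and had 241 counts in THZ1 and 269 in DMSO, so the CDK4 value is uncertain by whatever reads are shared.

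**Figure D2:**
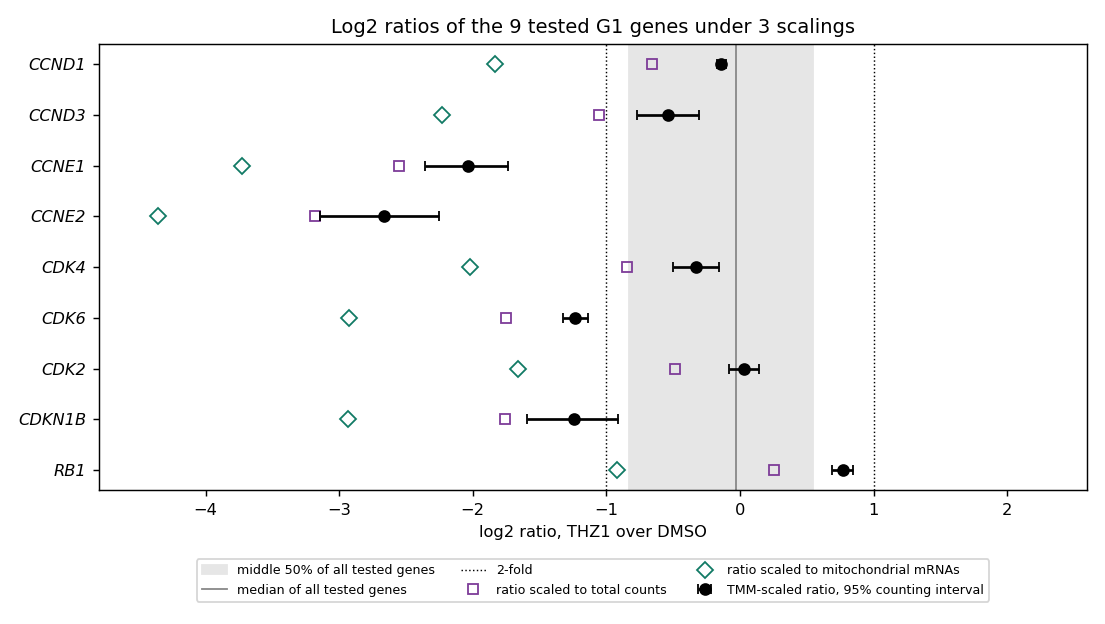
Log2 ratios, THZ1 over DMSO, for the 9 compared genes, with 95% counting intervals on the TMM scale, and the same ratio scaled to total counts and to mitochondrial mRNAs. CCNE2 (−2.67) and CCNE1 (−2.03) lie furthest left on each scaling and RB1 (0.77 on the TMM scale) furthest right, falling to −0.92 on the mitochondrial scale.

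CDKN1B, the inhibitor that binds cyclin E and CDK2 complexes, was lower together with the E cyclins. It had 93 counts in THZ1 and 318 in DMSO, or 6.07 and 14.4 CPM, and a log2 ratio of −1.24 (−1.6 to −0.91). The upper end of the interval was within 2-fold, so the call is lost if the whole interval must lie beyond 2-fold. By that rule 3 of the 9 genes were lower, beside 15.0% of all compared genes, and 0 higher, beside 5.38%. The difference in log2 ratio, CDKN1B minus CDK2, was −1.28 (−1.65 to −0.92). CDKN1A (p21), the other CIP/KIP inhibitor with counts, had 260 counts in THZ1 and 626 in DMSO and a log2 ratio of −0.74 (−0.96 to −0.53). The difference, CDKN1B minus CDKN1A, was −0.51 (−0.92 to −0.10).

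RB1, the pocket protein that CDK4, CDK6 and CDK2 phosphorylate, had the highest ratio of the 9 genes. It had 2809 counts in THZ1 and 2372 in DMSO, or 183 and 108 CPM. Its log2 ratio of 0.77 (0.69 to 0.85) was at percentile 83.3 among all compared genes and within 2-fold. The ratio was 0.25 with total counts and −0.92 with mitochondrial mRNAs, so its sign depends on the scaling. By a 1.5-fold rule RB1 was called higher, 1 of 9 genes beside 23.4% of all compared genes, while 4 of 9 were lower beside 30.5%. The other pocket protein genes differed from each other. RBL1 (p107), itself an E2F target, had 738 counts in THZ1 and 1704 in DMSO and a log2 ratio of −0.68 (−0.81 to −0.56). RBL2 (p130) had 1202 counts in THZ1 and 1114 in DMSO and a log2 ratio of 0.63 (0.52 to 0.75), which is negative on the mitochondrial scale.

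On any scaling, RB1 stood above RBL1 and not detectably apart from RBL2. The difference in log2 ratio was 1.45 (1.30 to 1.6) for RB1 minus RBL1 and 0.13 (−0.01 to 0.28) for RB1 minus RBL2. Per length, RB1 made up 60.2% of the summed pocket protein level in THZ1 and 45.6% in DMSO, RBL1 17.1% in THZ1 and 35.5% in DMSO, and RBL2 22.7% in THZ1 and 18.9% in DMSO. The receptor gene LPAR6 lies inside an RB1 intron on the opposite strand, shares no exonic base with it, and had 38 counts in THZ1 and 27 in DMSO.

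**Figure D3:**
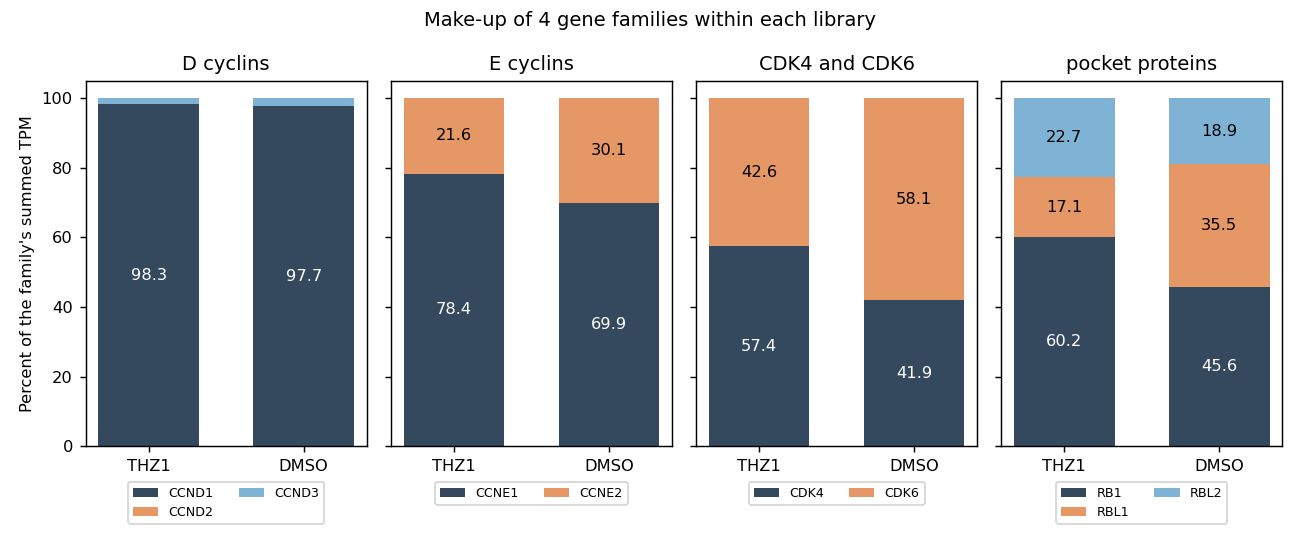
Share of each gene in the summed TPM of its family, THZ1 bar left of the DMSO bar, for the D cyclins, the E cyclins, CDK4 with CDK6, and the pocket proteins. The share of CCND1 is near 98% in both libraries, while CCNE2, CDK6 and RBL1 take smaller shares in THZ1 than in DMSO.

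Ordered by TPM within the THZ1 library, the genes ran CCND1 (313), RB1 (61.2), CDK2 (41.4), CDK4 (19.0), CDK6 (14.1), CCNE1 (5.57), CCND3 (5.50), CDKN1B (4.65) and CCNE2 (1.53). The counting intervals of CCNE1, CCND3 and CDKN1B overlapped, so their order is not resolved. In the DMSO library the order was CCND1 (675), CDK2 (79.1), RB1 (70.1), CDK6 (64.6), CDK4 (46.7), CCNE1 (44.7), CDKN1B (21.6), CCNE2 (19.2) and CCND3 (15.6). There, CDK4 and CCNE1 were not resolved, nor were CDKN1B and CCNE2. With the longest annotated transcript as length, CCNE1 had 5.75 TPM in THZ1 and 43.6 TPM in DMSO and lay below CDK4, at 24 and 55.6 TPM, in both libraries. By that length CCND3 had 11.0 TPM in THZ1 and 29.6 TPM in DMSO, above CCNE1 in THZ1 and above CDKN1B and CCNE2 in DMSO. TPM serve only to order genes within a library, since each library's sum includes its mitochondrial mRNAs.

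**Figure D4:**
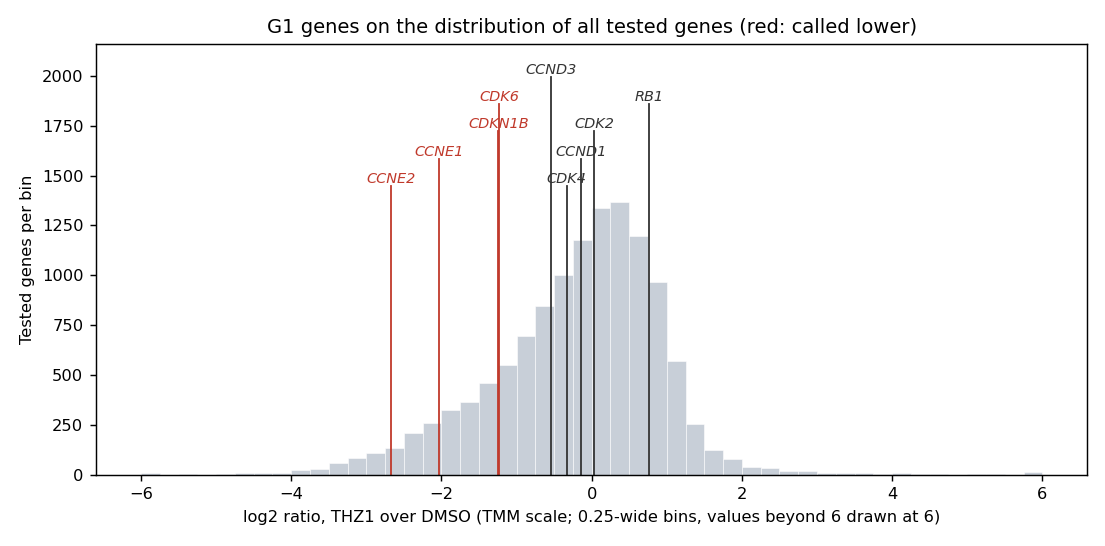
Number of compared genes per 0.25-wide bin of the log2 ratio, THZ1 over DMSO on the TMM scale, with a line at each of the 9 genes, red where called lower. CCNE2 and CCNE1 lie in the left tail at percentiles 3.10 and 7.43, CDK6 and CDKN1B share a bin, and RB1 lies right of the peak.

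The promoters of 3 of the 4 lower genes and of CDK4, the paralogue of CDK6 that stayed within 2-fold, are shown because THZ1 inhibits a kinase of the machinery that starts transcription there. They are RefSeq windows on GRCh38.p14, from 250 bases before to 50 bases after an annotated start, 5′ to 3′ on the gene's own strand. CCNE1 lies at chr19:29811741-29812040 on the plus strand, CDK6 at chr7:92836524-92836823 on the minus strand, CDKN1B at chr12:12717118-12717417 on the plus strand and CDK4 at chr12:57752261-57752560 on the minus strand. Capitals mark the SP1 box GGGCGG read on either strand.
CCNE1: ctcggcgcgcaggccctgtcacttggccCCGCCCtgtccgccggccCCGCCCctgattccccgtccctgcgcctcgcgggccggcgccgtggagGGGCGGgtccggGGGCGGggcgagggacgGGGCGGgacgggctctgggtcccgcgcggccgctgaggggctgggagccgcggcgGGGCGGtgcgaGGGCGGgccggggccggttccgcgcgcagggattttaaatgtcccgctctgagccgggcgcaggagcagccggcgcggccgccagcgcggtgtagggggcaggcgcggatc
CDK6: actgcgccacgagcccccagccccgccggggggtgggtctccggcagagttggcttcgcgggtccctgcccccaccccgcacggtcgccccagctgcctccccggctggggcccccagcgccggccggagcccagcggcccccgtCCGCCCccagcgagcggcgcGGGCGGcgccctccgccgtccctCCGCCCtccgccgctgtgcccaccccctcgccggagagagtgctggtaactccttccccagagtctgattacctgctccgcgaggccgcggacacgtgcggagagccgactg
CDKN1B: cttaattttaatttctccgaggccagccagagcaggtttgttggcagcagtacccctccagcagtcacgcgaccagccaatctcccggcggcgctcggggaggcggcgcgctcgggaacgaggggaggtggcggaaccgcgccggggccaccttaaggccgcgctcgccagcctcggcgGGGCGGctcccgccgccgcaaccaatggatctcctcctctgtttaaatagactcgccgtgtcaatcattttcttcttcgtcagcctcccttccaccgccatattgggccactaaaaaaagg
CDK4: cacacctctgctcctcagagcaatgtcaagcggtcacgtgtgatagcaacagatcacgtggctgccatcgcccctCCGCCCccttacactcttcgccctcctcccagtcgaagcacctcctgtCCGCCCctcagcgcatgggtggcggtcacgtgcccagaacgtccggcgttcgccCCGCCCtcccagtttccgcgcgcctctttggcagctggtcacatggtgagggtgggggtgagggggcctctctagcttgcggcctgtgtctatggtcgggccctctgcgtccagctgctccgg

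The 4 windows were rich in G and C, at 81.0% for CCNE1, 78.0% for CDK6, 62.3% for CDKN1B and 66.0% for CDK4. SP1 boxes numbered 7 in the CCNE1 window, 3 in CDK6, 1 in CDKN1B and 3 in CDK4, so they occurred in the windows of the lower genes and of the paralogue within 2-fold. Of all 35116 promoter windows, 45.0% hold this motif. Of the 9 windows found for the 10 genes, 6 hold it, and the 4 shown are among these 6. The E2F motifs TTTCCCGC, TTTGGCGC, TTTCGCGC and TTTGCCGC, present in 3.31% of all windows, the AP-1 motifs TGACTCA and TGAGTCA (4.95%) and the TATA box TATAAA (11.5%) were in none of the 9 windows found for the 10 genes, searched on both strands. Only these exact letters were searched. At such low shares, absence from 9 windows does not show that a gene lacks sites of these kinds. The CRE core ACGTCA, in 7.98% of all windows, was found in a second window of CDK6, whose start lies 2.63 kb inside the gene. The 9 windows belong to CCND3, CCNE1, CDK4, CDK6, CDKN1B and RB1, and their starts were set against the 5′ end of each gene in GENCODE 29. The start was 93 bases inside the gene for CCNE1 and 21 for the CDK6 window shown, but 2.31 kb for CDKN1B, 3.70 kb for CDK4 and 173 kb for RB1. The CCND3 windows started 1.67, 109 and 111 kb inside the gene. CCND1, CCND2, CCNE2 and CDK2 had no entry.

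The 4 lower genes spanned 7.31 to 232 kb, and the other compared genes of the 10 spanned 6.02 to 296 kb. Any part of gene size or position in the ratios was not tested. On GRCh38 (GENCODE 29), CCNE1 (ENSG00000105173) spans 12.4 kb of chromosome 19 from 29811898 to 29824308, CCNE2 (ENSG00000175305) 16.9 kb of chromosome 8 and CDKN1B (ENSG00000111276) 7.31 kb of chromosome 12 from 12715058 to 12722371. CDK6 (ENSG00000105810), also lower, spans 232 kb of chromosome 7 from 92604921 to 92836594, and RB1 (ENSG00000139687), with the highest ratio, 296 kb of chromosome 13 from 48303726 to 48599436. CDK2 (ENSG00000123374) and CDK4 (ENSG00000135446), at 6.02 and 8.29 kb on chromosome 12, were within 2-fold. So were CCND1, at 13.4 kb, and CCND3, at 115 kb. Among all compared genes, the share called lower was 23.0% for spans under 10 kb, 26.1% for 10 to 30 kb, 19.8% for 30 to 100 kb and 14.9% above 100 kb.

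The other genes of the pathway were read with the same rule. Of 57 listed genes outside the 10, 55 were compared, of which 16 were called lower (29.1%), 4 higher and 35 neither, beside 21.3% lower and 9.70% higher among all compared genes. These counts became 24 and 0 on total counts, beside 34.2% and 2.95% of all compared genes. On mitochondrial mRNAs they became 47 and 0, beside 80.3% and 0.706%.

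The INK4 inhibitors, which block CDK4 and CDK6, had 0 of 4 lower and 2 higher, beside 21.3% and 9.70% of all compared genes. CDKN2A, which encodes p16 and ARF, had 1142 counts in THZ1 and 660 in DMSO and a log2 ratio of 1.32 (1.18 to 1.46). CDKN2D had 67 counts in THZ1 and 48 in DMSO and a log2 ratio of 1.0 (0.45 to 1.57), and is not called with DESeq2 size factors. CDKN2B had a log2 ratio of 0.86 (0.52 to 1.22) and CDKN2C one of −0.79 (−1.08 to −0.50). The ratios of CDKN2A, CDKN2B and CDKN2D are below 0 on the mitochondrial scale. CDKN1C, the remaining CIP/KIP inhibitor, had 0 counts in both libraries.

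Of the 10 E2F and DP genes, some of whose products bind RB1 or its relatives, 6 were lower (60%), 0 higher and 4 neither. Among all compared genes, 21.3% were lower and 9.70% higher. E2F6, E2F7 and E2F8, which lack the pocket protein binding domain, were among the 6. The activator E2F2 had a log2 ratio of −3.53 (23 counts in THZ1 and 390 in DMSO), the atypical repressor E2F8 one of −3.22 (54 and 729) and the activator E2F3 one of −2.53 (137 and 1146). Of 19 E2F target genes, 4 were lower, 0 higher and 15 neither, a share of 21.1% beside 21.3% of all compared genes. The lower ones were the replication licensing genes CDT1 (−2.60), CDC6 (−1.62) and ORC1 (−1.55) and the S-phase cyclin CCNA2 (−1.95), of which ORC1 was named after its value was seen. The median of the 19 was 0.00, so CCNE1 and CCNE2 lay below most of them, and CCNE2 at −2.67 below CDT1, the lowest.

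MuvB proteins pair with pocket proteins in the DREAM complex. Of the 5 compared genes in the MuvB and MYB list, 1 was lower (20%), beside 21.3% of all compared genes. This was LIN54 (−1.76), while LIN9 had −0.90 and LIN52 −0.59. CDC25A, the phosphatase that activates CDK2, had 37 counts in THZ1 and 1312 in DMSO and a log2 ratio of −4.60 (−5.14 to −4.15). MNAT1, the assembly factor of the CDK-activating kinase, had a log2 ratio of 0.86 (0.76 to 0.97), negative on the mitochondrial scale, beside −1.38 for CDK7. CCNH, the other gene of that kinase, was named after its value was seen. It had 0.39 (0.30 to 0.49), below 0 with total counts. Of these 4 genes, 2 were lower, CDC25A and CDK7, and 0 higher, beside 21.3% and 9.70% of all compared genes. Of 10 genes for ubiquitin ligases that turn over cyclins or CDKN1B, 3 were lower, 2 higher and 5 neither. Among all compared genes, 21.3% were lower and 9.70% higher. The lower ones were FBXO31 (−2.15) and AMBRA1 (−2.01), which both target D cyclins, and the cullin CUL1 (−1.41). The higher ones, named after their values were seen, were the adaptor SKP1 (1.33) and the RING subunit RBX1 (1.22), both below 0 on the mitochondrial scale. ACTB and GAPDH, which often serve as loading references, had log2 ratios of 0.22 and 0.43, both below 0 with total counts.

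**Figure D5:**
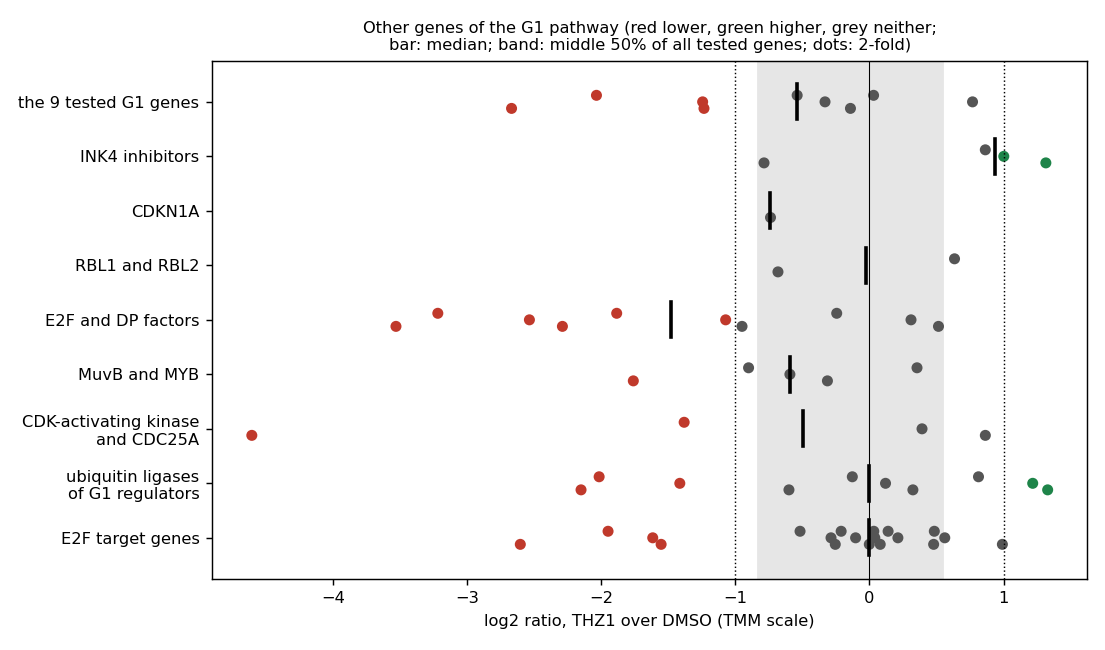
Log2 ratio, THZ1 over DMSO on the TMM scale, for the 9 compared G1 genes and the 55 other compared genes of the pathway by list, red where called lower, green where called higher and grey otherwise, with a black bar at each median and a band for the middle 50% of all compared genes. The E2F and DP list holds 6 lower genes of 10, beside 21.3% of all compared genes, and the E2F targets centre on 0.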

How the data were processed

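Per the labels' protocols, libraries were made from TRIzol-extracted RNA with the KAPA mRNA HyperPrep kit. The authors deposited a raw count for each gene, with no normalization. The build GRCh38 and the tools featureCounts 1.6.0, HISAT2 2.1.0 and Trimmomatic 0.38 are those in the submitters' processing notes. The annotation release, strand setting and treatment of reads with several matches are each not given in the sources used here. Libraries were grouped by their treatment label, 1 per group, and whether they came from separate cultures is not stated.

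Of 58884 gene IDs, 58472 had a symbol in the symbol table and 58611 were in GENCODE 29, the source of coordinates and exon lengths. TMM factors from edgeR 4.0.16 (R 4.3.3), computed over 12457 genes (at least 30 counts in either library), gave effective library sizes of 15320940 for THZ1 and 22049153 for DMSO. Log2 ratios, THZ1 over DMSO, used 0.5 added to each count. The 95% intervals come from exact Clopper-Pearson bounds on the share of a gene's counts that lay in THZ1, and differences between genes are exact conditional odds ratios of the counts. Of 10 pairs listed, 8 could be computed, as CCND2 had no counts. TPM intervals are exact Poisson. Reads carry no molecular identifiers, so intervals and floors cover counting error only.

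The 10 genes, the pathway lists and the motifs were chosen with earlier results of these data known. Named were the 10 genes, all INK4, CIP/KIP and pocket protein genes, the 3 genes furthest from 0 with 100 or more counts in each other list, CDK7, ACTB, GAPDH and overlapping genes. Coding genes and named antisense genes that share exonic bases with a compared gene are given beside it. The scaling alternatives were size factors from DESeq2 1.42.0, total counts, mitochondrial mRNAs and the upper quartile. The others were count minimums of 1 and 100, coding genes only, a whole interval beyond 2-fold, a 1.5-fold rule, thinning to equal totals, 5 counts added and the longest transcript as length. Figures used matplotlib 3.10.9, and tables Python 3.11.15 with scipy 1.17.1, numpy 2.4.6 and pandas 2.3.3.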

Additional observations from a re-analysis of the deposited data

How the results depend on the processing

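With 1 library per group, the calls rest on the scaling and on counting error. The count of 4 lower genes was 5 with total counts (CCND3 added), 3 when the whole interval must lie beyond 2-fold (CDKN1B lost, beside 15.0% of all compared genes), 8 with mitochondrial mRNAs (all compared genes but RB1) and 4 under the other 8 alternatives. The count of 0 higher genes became 1 (RB1) with a 1.5-fold rule, by which 23.4% of all compared genes were higher, and was 0 under the other alternatives. The median log2 ratio of the 9 genes, −0.54, was −1.05 with total counts, −0.65 with DESeq2 size factors and −2.23 with mitochondrial mRNAs, shifts equal to those of all genes. The other genes of the pathway had 16 lower and 4 higher, against 47 lower and 0 higher with mitochondrial mRNAs, 0 higher with total counts and 9 of 55 higher with the 1.5-fold rule. Single lists moved by over 1.5 times mainly with the scaling. With mitochondrial mRNAs, 80.3% of all compared genes were lower. By that scale 10 of 10 E2F and DP genes were lower in place of 6, 18 of 19 E2F targets in place of 4 and 7 of 10 ubiquitin ligase genes in place of 3. The MuvB and MYB list had 5 of 5 lower in place of 1. It had 3 lower under total counts, by which 34.2% of all compared genes were lower. INK4 genes had 1 higher in place of 2 with DESeq2 size factors, the upper quartile, a minimum of 100, the whole interval or 5 counts added. Those settings had 5.38% to 9.37% of all compared genes higher. The INK4 count was 0 with total counts or mitochondrial mRNAs, beside 2.95% and 0.706%. The 8 differences between gene pairs do not depend on scaling and kept their sign with 0.5 added to each count. Gene length changed the order of the CDK4 and CDK6 values in DMSO, which were close by the longest transcript. It also changed the gap between CDK4 and CCNE1 there and the place of CCND3. No paired analysis was possible because each group has 1 library. No replicate could be left out for the same reason.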

Other observations

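Cyclins and their kinases were also set against each other as summed counts, a ratio within each library that no scaling changes, chosen after the values were seen. CCNE1 and CCNE2 together had 149 counts in THZ1 and 1041 in DMSO, which is 0.130 E cyclin counts per CDK2 count in THZ1 and 0.645 in DMSO. The difference in log2 ratio was −2.31 (−2.59 to −2.04, counting error only). CCND1 and CCND3 together had 6.64 counts per count of CDK4 and CDK6 in THZ1 and 3.56 in DMSO, a difference of 0.90 (0.81 to 0.99). CCND1 supplied 97.9% of these D cyclin counts in THZ1 and 97.3% in DMSO. CDK6 supplied 74.1% of the CDK4 and CDK6 counts in THZ1 and 84.3% in DMSO. The ratio is thus mostly that of CCND1 to CDK6. E cyclin counts per CDKN1B count were 1.6 in THZ1 and 3.27 in DMSO, a difference of −1.03 (−1.46 to −0.60), although CDKN1B was itself lower. E cyclin counts per D cyclin count were 0.0136 in THZ1 and 0.0593 in DMSO, a difference of −2.13 (−2.39 to −1.88). These are ratios of RNA counts, not corrected for length, and say nothing of protein.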
